A study of Mus musculus with 4 samples.

Results

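The genes described here are 28 genes of cholesterol synthesis and sterol control, out of 32286 features in the count matrices of mouse tumours driven by SMO-M2. They were chosen by name as a pathway, not by their levels. They comprise 20 synthesis enzymes, from Acat2 and Hmgcs1 at the entry to the mevalonate pathway to Dhcr7 near its end, and 8 genes that control sterol levels or dispose of sterols. Tumour tissue, labelled MB for its source, was dissociated and captured on a droplet system that counts the 3' ends of transcripts as unique molecular identifiers (UMIs). There were 4 libraries, 1 for each combination of genotype and sex. SG is fSMO-M2;hGFAPcre, in which Cre driven by the human GFAP promoter switches on SMO-M2, a constitutively active Smoothened. YSG is fYap1;fSMO-M2;hGFAPcre, which adds a floxed allele of Yap1, a transcriptional coactivator of the Hippo pathway. All 4 libraries therefore carry SMO-M2 and Cre, and Cre acts in neural progenitors and astroglia but not in every cell of a tumour. The design text calls the YSG animals rescued and all tumours end point. The sources used here give no ages, no number of animals per library and no zygosity of the floxed allele. Each group being 1 library, no replicate error could be had and no test was run, and genotype and sex cannot be told apart from the animal, its age or the capture run.

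Cholesterol is made from acetyl-CoA through mevalonate, isoprenoids, squalene and lanosterol. Transcription of the enzymes is driven by SREBP factors, above all the product of Srebf2. SCAP escorts the SREBPs out of the endoplasmic reticulum when sterols are scarce, and INSIG proteins hold them back when sterols are plentiful. In the brain the blood-brain barrier keeps out lipoprotein cholesterol, so neural cells make their own, with oligodendrocytes needing it for myelin. Cholesterol and its oxidised derivatives also bind Smoothened, the receptor activated in these tumours.

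After filtering, 8419 SG and 7882 YSG cells were kept from males and 7656 SG and 7193 YSG cells from females, with medians of 6197, 5872.5, 7419.5 and 6667 UMIs per cell. The median share of mitochondrial UMIs was 3.86%, 3.76%, 4.20% and 4.23% in the same order, so both male libraries were lower than both female libraries in UMIs per cell and in mitochondrial share. Yap1 had 266 and 374 UMIs in the SG male and female libraries and 10 and 3 in the YSG male and female libraries, so it was low in both libraries labelled with the floxed allele. Ddx3y, a Y-linked gene, had 0 UMIs in both female libraries. Libraries shared 9 to 21 cell barcodes, and none of these had equal UMI totals. The 17 clusters were made without the 28 genes and gave the cell groups used below. Cells assigned to the granule lineage, the cerebellar neurons that such tumours resemble, made up 90.4% to 92.1% of each library. This share includes the other granule cells, a name given by default to clusters that met no other rule. It also includes the cycling cells, which were named from cycling markers with no granule marker required. The 16 cycling markers summed to between 4935 and 5916 CPM (UMIs of a gene over all UMIs of the same cells, times 1000000) in cycling cells and to 419 to 549.8 in postmitotic cells. Aqp4, the astroglial water channel, stood at 122 to 682 CPM in the Aqp4-positive cells and at most at 4.92 CPM in the cycling, postmitotic and other granule cells. Mbp, a myelin protein gene, stood at 434 to 804 CPM in the oligodendrocyte-like cells and at most at 58.7 CPM in the same granule cells.

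RefSeq promoter sequences for GRCm38.p6, the assembly that mm10 names, were found for 24 of the 28 genes and run from 250 bases before to 50 bases after each annotated start. The 5 shown here belong to the genes on which the comparisons below turn: Hmgcs1, Insig1 and Msmo1, which were higher in males in both genotypes, and Idi1 and Soat1, which were lower in YSG in both sexes. They lie at chr13:119690101-119690400 on the plus strand for Hmgcs1, chr5:28071162-28071461 plus for Insig1, chr8:64733529-64733828 minus for Msmo1, chr13:8885356-8885655 plus for Idi1 and chr1:156474279-156474578 minus for Soat1. Each is written 5' to 3' on the strand of its gene. Capitals mark TCACNCCAC, a form of the sterol regulatory element that SREBPs bind, and CCAAT, the motif of the cofactor NF-Y, on either strand.
Hmgcs1: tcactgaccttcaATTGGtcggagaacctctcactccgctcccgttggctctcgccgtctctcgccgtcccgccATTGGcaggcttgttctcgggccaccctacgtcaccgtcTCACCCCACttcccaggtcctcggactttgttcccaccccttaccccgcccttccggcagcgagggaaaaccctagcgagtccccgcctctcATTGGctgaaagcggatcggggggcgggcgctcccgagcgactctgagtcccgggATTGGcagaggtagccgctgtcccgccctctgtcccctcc
Insig1: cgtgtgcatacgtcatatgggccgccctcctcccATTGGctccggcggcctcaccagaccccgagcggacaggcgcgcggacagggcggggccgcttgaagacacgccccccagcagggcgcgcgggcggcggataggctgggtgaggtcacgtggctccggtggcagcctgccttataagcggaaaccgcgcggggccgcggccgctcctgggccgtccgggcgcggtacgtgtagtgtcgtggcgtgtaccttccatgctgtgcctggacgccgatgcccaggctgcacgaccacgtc
Msmo1: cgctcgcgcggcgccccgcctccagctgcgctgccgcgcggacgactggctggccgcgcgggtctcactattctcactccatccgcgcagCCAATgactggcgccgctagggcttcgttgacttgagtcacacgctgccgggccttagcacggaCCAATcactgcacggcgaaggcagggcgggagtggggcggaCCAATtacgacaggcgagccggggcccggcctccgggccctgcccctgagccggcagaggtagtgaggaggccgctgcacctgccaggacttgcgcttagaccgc
Idi1: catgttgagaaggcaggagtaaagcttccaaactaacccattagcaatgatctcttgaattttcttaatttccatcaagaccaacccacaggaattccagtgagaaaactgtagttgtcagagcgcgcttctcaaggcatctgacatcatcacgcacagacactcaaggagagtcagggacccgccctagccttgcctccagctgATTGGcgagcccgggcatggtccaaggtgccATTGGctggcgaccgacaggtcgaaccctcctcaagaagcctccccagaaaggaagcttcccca
Soat1: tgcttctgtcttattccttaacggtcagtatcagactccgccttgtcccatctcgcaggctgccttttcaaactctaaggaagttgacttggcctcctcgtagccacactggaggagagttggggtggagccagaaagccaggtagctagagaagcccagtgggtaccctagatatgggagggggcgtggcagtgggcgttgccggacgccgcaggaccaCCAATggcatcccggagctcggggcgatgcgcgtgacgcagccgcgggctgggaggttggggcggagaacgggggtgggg
Among these, the TCACNCCAC letters occurred only in Hmgcs1, as TCACCCCAC at base -137 from the start. The same letters occurred in 1 of the 32 promoters of the 24 genes (3.12%) and in 1.24% of all 32851 promoters of that length. CCAAT was found in 22 of the 32 promoters (68.8%) and in 37.4% of all promoters, and GGGCGG, the GC box, on either strand in 26 of 32 (81.2%) and in 35.7%. Hmgcs1 carried 4 CCAAT matches, Msmo1 3, Idi1 2, and Insig1 and Soat1 1 each. No matches of the 3 motifs overlapped in these 32 promoters, and a match is a run of letters, not a measured site.

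Over all kept cells, the 20 enzymes summed to 1985 CPM in SG males, 1701 in YSG males, 1572 in SG females and 1361 in YSG females. Both male libraries lay above the female library of the same genotype, and both SG libraries lay above the YSG library of the same sex. Each of these 4 sums rests on 79345 to 145210 UMIs, and their exact Poisson intervals (95%, counting error only, as for all intervals here) do not overlap. Hmgcs1, Idi1 and Cyp51 made up 58.7%, 55.1%, 53.8% and 52.0% of the sum in the same order. A 3' UMI count does not grow with transcript length, so these levels are comparable per transcript as far as capture is even.

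**Figure D1:**
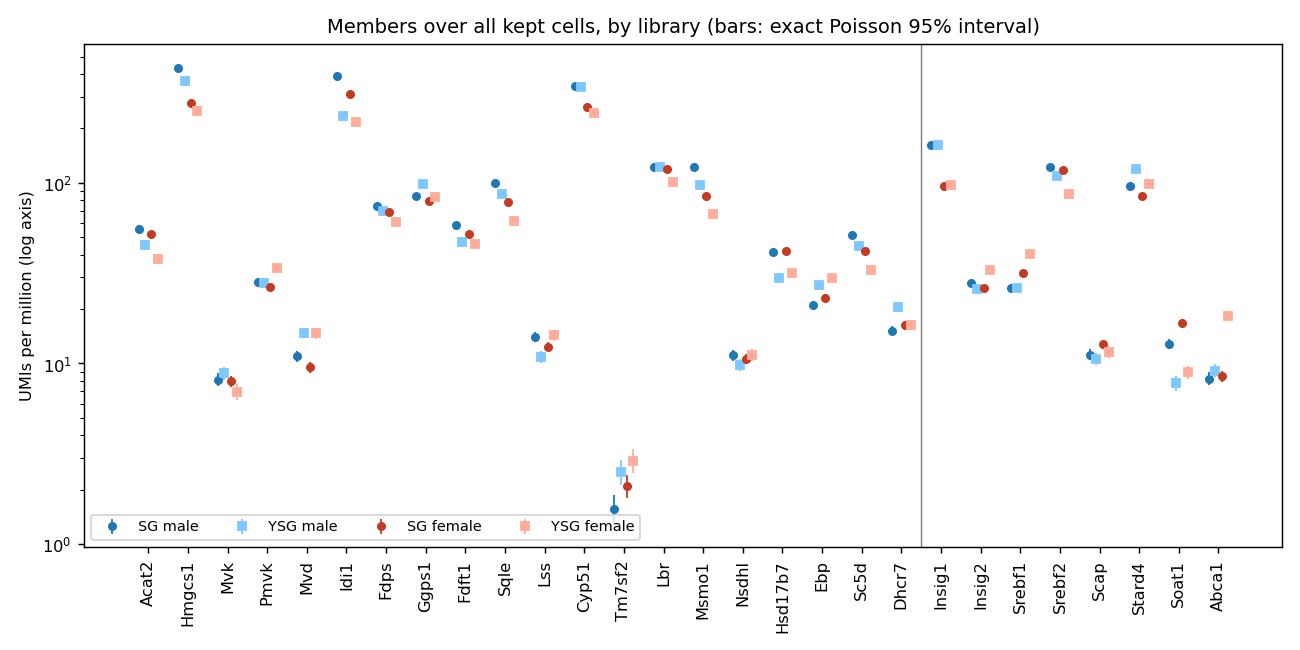
Level of each of the 28 genes over all kept cells, in CPM on a log axis, in the 4 libraries; bars are exact Poisson 95% intervals and the grey line parts the 20 enzymes (left) from the 8 control and disposal genes (right). Hmgcs1, Idi1 and Cyp51 are the most abundant, Tm7sf2 lies below 3 CPM in all 4 libraries, and Hmgcs1 and Insig1 are higher in both male libraries than in both female libraries.

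Of the 28 genes, 27 were measured in each comparison over all kept cells, which required 5 CPM in at least 1 of the libraries compared and 20 UMIs over both. Tm7sf2, a sterol C14 reductase, was not, at 1.56 CPM in SG males, 2.50 in YSG males, 2.10 in SG females and 2.88 in YSG females. It overlaps Vps51 on the same strand, so its few UMIs cannot be assigned with certainty. Acat2 and Idi1 have near copies, Acat3 and Idi2, which carried only 20 to 35 and 8 to 12 UMIs per library.

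The first question was how sex and the genes were related, since the series is about sex differences. Hmgcs1, Insig1 and Msmo1 were the members that were higher in males by 0.5 log2 or more, in SG and again in YSG. Over SG and YSG males and SG and YSG females, Hmgcs1, the cytosolic HMG-CoA synthase that starts the mevalonate branch, stood at 433, 365, 275 and 249 CPM. The male over female ratio was 1.58-fold (1.55 to 1.60) in SG and 1.47-fold (1.437 to 1.498) in YSG. Both male libraries were above both female libraries.

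Insig1, the sterol-sensing anchor that is itself an SREBP target, stood at 162 CPM in each male library, 96.5 in SG females and 96.7 in YSG females. The ratio of males to females was 1.68-fold in both genotypes (1.63 to 1.72 in SG and 1.63 to 1.74 in YSG). Over all kept cells, the YSG and SG levels within each sex did not differ beyond their counting intervals. Inside clusters with 50 or more cells of both genotypes, Insig1 was often lower in YSG. From SG to YSG, cluster 1 went from 336 to 193 CPM for males and from 243 to 130 for females. Cluster 5 went from 333 to 240 and from 277 to 165, and cluster 9 from 183 to 88.4 and from 134 to 55.1. The intervals included no difference in clusters 7, 8, 11 and 12 of males and 0, 2, 12 and 13 of females. Msmo1, a C4-methylsterol oxidase, stood at 122 CPM in SG males, 97.5 in YSG males, 84.3 in SG females and 67.5 in YSG females. That was 1.45-fold higher in males in SG (1.406 to 1.496) and 1.44-fold in YSG (1.387 to 1.504).

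Genes past this size in both genotypes were few. In SG, 0.288% of 10057 genes were higher in males and 0.845% were lower by 0.5 log2 or more. In YSG, 2.75% were higher and 6.48% were lower. Of 9811 genes measured in both, 13 (0.133%) were higher in both genotypes, and the 3 sterol genes stood among these beside 4 Y-linked genes and Ptgds, Mxd1, Fosb, Slc2a4, Insm2 and Frat2. Fosb and Mxd1 are among the leading genes of cluster 5, a postmitotic cluster led by the early-response and heat shock genes Fos, Hspa1a and Npas4. It held more of the male than of the female cells, 538 of 8419 and 358 of 7656 in SG and 956 of 7882 and 557 of 7193 in YSG, and had high enzyme levels, 2145 CPM for the sum over its cells. Without cluster 5 the male over female ratios in SG and YSG were 0.64 and 0.52 log2 for Hmgcs1, 0.74 and 0.73 for Insig1, and 0.504 and 0.48 for Msmo1, the last just under the threshold in YSG, and the sum was 1.25-fold and 1.24-fold higher in males. At resolution 2.0, a cluster named cycling and another named other granule were led by Hspa1a, Hspa1b and Fos. The cycling one held 127 SG male, 93 SG female, 340 YSG male and 73 YSG female cells, at 1886 CPM for the sum. The other held 200, 119, 405 and 85 in the same order, at 1939 CPM. Leaving out cluster 5 may therefore not leave out all cells of this kind. None of the 27 members was lower in males in both genotypes by that size, against 0.326% of all genes. In YSG alone 2 members were lower in males, Srebf1 (-0.61 log2) and Abca1 (-0.94 log2). Without cluster 10, a cluster almost entirely of YSG female cells, the YSG ratios of Hmgcs1 and Msmo1 came to 0.47 and 0.45 log2, just under the threshold, that of Srebf1 came to -0.46, and Insig1 was still past it at 0.64.

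**Figure D2:**
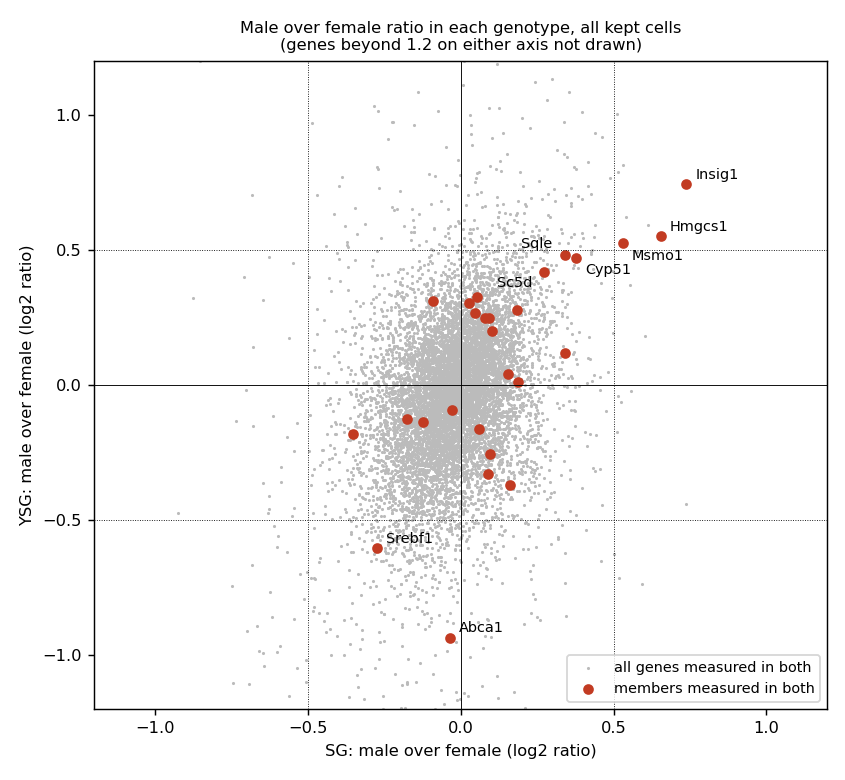
Male over female log2 ratio of each gene in SG (horizontal) and YSG (vertical), over all kept cells with a pseudocount of 1 CPM; grey points are all genes measured in both genotypes, red points are the 27 measured members, and dotted lines mark 0.5 log2. Hmgcs1, Insig1 and Msmo1 lie past 0.5 on both axes, Cyp51, Sqle and Sc5d lie just short of it, and Srebf1 and Abca1 lie low on the YSG axis.

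Further enzymes stood on the same side by smaller amounts. Cyp51, the lanosterol demethylase, was 0.38 log2 higher in males in SG and 0.47 in YSG. Sqle, the squalene epoxidase, was 0.34 and 0.48 higher, and Sc5d, a sterol C5 desaturase, 0.27 and 0.42. In all, 16 of the 27 members were higher in males in both genotypes and 6 were lower in both, against 24.4% and 37.3% of all genes measured. The median log2 ratio of the members was 0.09 in SG and 0.20 in YSG, beside -0.02 and -0.04 over all genes tested.

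The summed enzymes were 1.26-fold higher in males in SG (1.25 to 1.27) and 1.25-fold in YSG (1.24 to 1.26). With Hmgcs1, Idi1 and Cyp51 left out, the other 17 enzymes were still 1.13-fold higher in SG (1.11 to 1.14) and 1.17-fold higher in YSG (1.15 to 1.19). Without cluster 10 the YSG ratio of the whole sum was 1.201-fold. Whether the lower UMI depth or mitochondrial share of the male libraries had a part in these ratios was not tested.

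The difference was present in the cycling, postmitotic, other granule and Aqp4-positive cells. It was not in the precursor-like cells of YSG, described below, where the female sum was the higher. In SG it was missing from cluster 8, unnamed and low in UMIs, at 1156 CPM in males and 1346 in females. Nor was it seen in cycling cluster 13 of SG, at 1315 and 1323 CPM. In YSG the intervals of males and females overlapped in cluster 13, at 1002 and 990 CPM. They also overlapped in other granule cluster 12 of YSG, at 940 and 907 CPM. In SG the summed enzymes were higher in males by 1.25-fold in cycling, 1.28-fold in postmitotic, 1.28-fold in other granule and 1.33-fold in Aqp4-positive cells. In YSG the same ratios were 1.18, 1.36, 1.22 and 1.24. Insig1 reached 177 CPM in SG male and 117 in SG female postmitotic cells, and 147 in YSG male and 71.9 in YSG female postmitotic cells, a ratio of 1.52-fold (1.42 to 1.62) and of 2.04-fold (1.92 to 2.17). The YSG female postmitotic cells include the 727 of cluster 10, at 953 CPM for the sum and 46.0 for Insig1. No YSG male cells lay in that cluster, and the postmitotic ratios were not recomputed without it.

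The transcription factors themselves did not share one sex pattern. Srebf2, the main driver of the enzymes, stood at 123 CPM in SG males, 109 in YSG males, 118 in SG females and 86.8 in YSG females, so males were 0.05 log2 higher in SG and 0.32 in YSG. Srebf1, which leans to fatty acid genes, stood at 26.1, 26.3, 31.8 and 40.5 CPM in the same order and was lower in males in both genotypes (-0.27 and -0.61 log2). Insig2, the second INSIG, stood at 27.9 CPM in SG males, 25.9 in YSG males, 26.1 in SG females and 32.8 in YSG females, so unlike Insig1 it was not high in both male libraries. Scap, the escort of the SREBPs, was low and even, at 11.2, 10.6, 12.8 and 11.6 CPM in the same order. The X-linked enzymes Ebp and Nsdhl differed little between the sexes, by -0.12 and -0.14 log2 for Ebp in SG and YSG and by 0.06 and -0.16 for Nsdhl. The 12 fatty acid genes measured beside them summed to 1.02-fold (1.01 to 1.03) and 1.04-fold (1.03 to 1.05) of the female level.

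The second question was what differed between YSG and SG. Over all kept cells the enzymes were lower in YSG, 1.17-fold in males (1.16 to 1.18) and 1.16-fold in females (1.15 to 1.17). Idi1 and Soat1 were the 2 members lower in YSG by 0.5 log2 or more in both sexes. Without Hmgcs1, Idi1 and Cyp51 the other 17 enzymes were 1.07-fold lower in males (1.06 to 1.09) and 1.11-fold lower in females (1.099 to 1.128).

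Idi1, the isopentenyl-diphosphate isomerase, stood at 391 CPM in SG males, 308 in SG females, 235 in YSG males and 217 in YSG females. It was 1.66-fold lower in YSG males (1.63 to 1.69) and 1.42-fold lower in YSG females (1.39 to 1.45), and both YSG libraries were below both SG libraries. Soat1, which esterifies cholesterol for storage, stood at 12.8 and 16.7 CPM in SG males and females and at 7.75 and 8.92 CPM in YSG males and females. It was 1.66-fold lower in males (1.48 to 1.85) and 1.87-fold lower in females (1.69 to 2.07). The female Idi1 ratio of -0.51 log2 lay near the threshold and came to -0.45 without cluster 10, -0.49 without cluster 5 and -0.45 with the cell groups given equal makeup.

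Differences of this size between the genotypes were common among all genes. In males 6.97% of genes were higher and 6.67% lower in YSG, beside 0 and 2 of the 27 members. In females 10.8% were higher and 7.79% lower, beside 2 and 2 members. In both sexes 4.42% of 10090 genes were lower and 4.9% higher, beside 2 and 0 of the 27 members, so the members' share lower was close to the background. The members' median was -0.09 log2 in males and -0.13 in females, with all genes at -0.008 and 0.0011.

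At any size, 14 of the 27 members were lower and 8 higher in YSG in both sexes, against 37.1% and 35.1% of all genes measured. Hsd17b7, a C4-demethylation enzyme, was lower by 1.39-fold (1.31 to 1.47) and 1.32-fold (1.25 to 1.40), and Msmo1 by 1.25-fold in each sex. Acat2, the cytosolic thiolase, was lower by 1.22-fold and 1.37-fold. On the other side, Mvd, the mevalonate diphosphate decarboxylase, stood at 11.0 and 9.54 CPM in SG males and females and at 14.8 and 14.7 in YSG. That was 1.35-fold higher in males (1.22 to 1.48) and 1.54-fold in females (1.40 to 1.70), though with equal makeup of the cell groups the log2 ratios came to 0.22 and 0.19. Ebp, a sterol isomerase, was 1.28-fold and 1.29-fold higher, and Stard4, a carrier of sterols between membranes, was 1.24-fold and 1.16-fold higher.

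Abca1, which exports cholesterol to lipoproteins, set the YSG female library apart. It stood at 8.24 CPM in SG males, 9.13 in YSG males and 8.48 in SG females, and at 18.4 in YSG females, 2.17-fold over SG females (1.97 to 2.39). Of its YSG female UMIs, 308 came from cluster 10, where it reached 44.0 CPM, and the log2 ratio of 1.03 came to 0.75 without that cluster. Cluster 10 was led by Hoxb2, Hoxb3 and Ren1 and held 727 YSG female cells and 17 cells of other libraries, so library and cell type cannot be told apart in it. Its enzymes summed to 953 CPM, below every other postmitotic cluster in every library with 50 or more cells. With finer clusters (resolution 2.0), one led by Hoxb2 and Hoxb3 held 199 SG male and 165 SG female cells. Another, led by Ren1 and Hoxb2 and named cycling, held 237 YSG female cells and had a sum of 1182 CPM. Leaving out cluster 10 may therefore not leave out all cells of this kind.

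**Figure D3:**
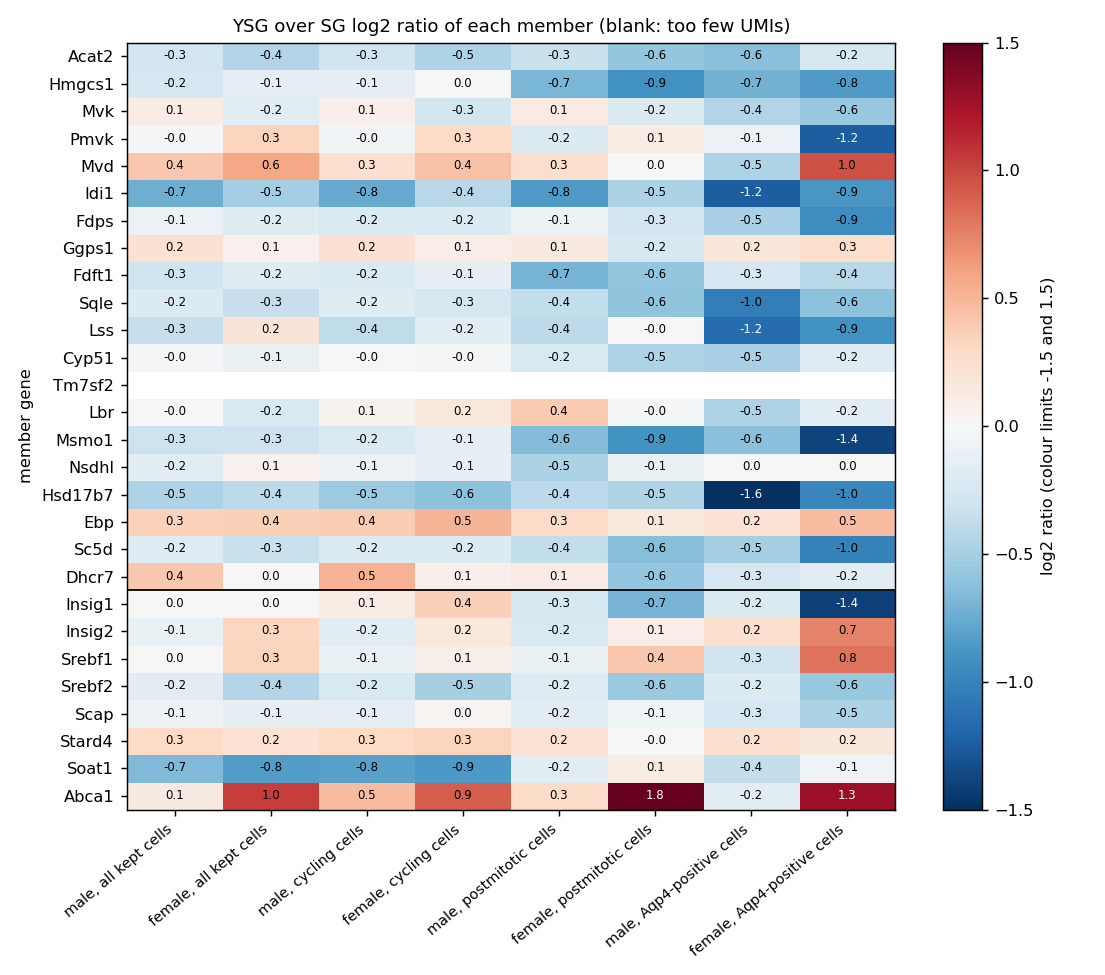
YSG over SG log2 ratio of each member (rows; enzymes above the line, control and disposal genes under it) in males and females, over all kept cells and in cycling, postmitotic and Aqp4-positive cells; blank cells had too few UMIs, and colours stop at 1.5 either way. Idi1 is negative in every column, Soat1 is at -0.82 and -0.86 in male and female cycling cells but at -0.17 and 0.11 in postmitotic cells, and Abca1 is positive in every female column.

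The genotype difference was unequal over the cell groups. In cycling cells the enzymes summed to 1993 CPM in SG males and 1749 in YSG males, and to 1595 in SG females and 1479.5 in YSG females, 1.14-fold and 1.08-fold lower in YSG. In postmitotic cells they summed to 2433 and 1787 CPM in males and to 1907 and 1312 in females. That was 1.36-fold lower in males (1.34 to 1.38) and 1.45-fold lower in females (1.43 to 1.48), or 1.31-fold in females without cluster 10. The 17 enzymes other than Hmgcs1, Idi1 and Cyp51 were 1.18-fold and 1.32-fold lower in these cells.

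Of the 27 members measured in postmitotic cells, 4 were lower by 0.5 log2 or more in YSG males, where 4.36% of all genes were, and 9 in YSG females, where 4.46% were. Hmgcs1, Msmo1 and Fdft1, the squalene synthase, were past it in both sexes. Hmgcs1 stood at 721 CPM in SG and 446 in YSG male postmitotic cells, and at 497 and 263 in the female ones. Msmo1 stood at 166 and 106 in males and 115 and 61.3 in females, and Fdft1 at 80.9 and 49.5 and at 72.7 and 48.1. Idi1 completed the 4 in males. Acat2, Sqle, Sc5d, Dhcr7, Insig1 and Srebf2 completed the 9 in females. The YSG female values include cluster 10, where Srebf2 stood at 62.7 CPM beside 95.6 to 118 in clusters 4, 5 and 9 of that library. The count of 9 was not recomputed without cluster 10.

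Postmitotic cells of the genotypes lay in different clusters, mostly 6 and 5 in SG and 4, 5 and 9 in YSG, with 10 in YSG females. They were also a larger part of YSG, at 36.4% against 23.9% of cells in males and 49.3% against 20.2% in females. The 16 postmitotic markers summed to 5050 and 5124 CPM in SG and YSG male postmitotic cells and to 5244 and 5757 in female ones. Soat1 did not share the postmitotic difference, at 6.08 and 5.29 CPM in males and 7.65 and 8.31 in females. In cycling cells it stood at 13.9 and 7.43 CPM in males and 17.1 and 8.96 in females, with SG cells mostly in cluster 0 and YSG cells mostly in cluster 1. Within cluster 1 Soat1 was not lower in YSG, at 4.74 CPM in SG and 7.45 in YSG males and 6.70 and 8.78 in females, the SG values resting on 8 UMIs each. Within cluster 0 it stood at 14.3 and 4.49 CPM in males and 17.3 and 13.6 in females, the YSG values resting on 2 and 10 UMIs. The Soat1 difference therefore cannot be told apart from the makeup of the clusters, whereas Idi1 was lower in YSG within cluster 1 too, at 450.2 and 239 CPM in males and 316 and 245 in females.

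For the enzyme sum, comparing cells of the same cluster gave the same direction. Of 11 clusters with 50 or more cells of both genotypes in males, the interval of the enzyme sum was wholly lower in YSG in 10, and of 9 such clusters in females in 8. The ratios ran from 1.04-fold to 1.98-fold lower in males and from 1.02-fold to 1.87-fold lower in females. In cluster 9, which had the highest postmitotic markers, the sum was 3488 CPM in 82 SG male and 1757 in 353 YSG male cells, and 2825 in 77 SG female and 1509 in 1159 YSG female cells. In cluster 4 it was 3031 and 1701 in males and 2548 and 1407 in females. In cluster 1, the cycling cluster made mostly of YSG cells, it was 2701 and 1776 in males and 2048 and 1504 in females. SG was the smaller genotype in clusters 9, 4 and 1. In cluster 0, made mostly of SG cells, the sum was 1.23-fold lower in YSG males and 1.24-fold lower in YSG females. Clusters 7 and 2 were also mostly SG, and it was 1.36-fold lower in males of cluster 7 and 1.31-fold lower in females of cluster 2. The smaller genotype of most of these clusters had few cells, which may not be typical of that genotype.

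**Figure D4:**
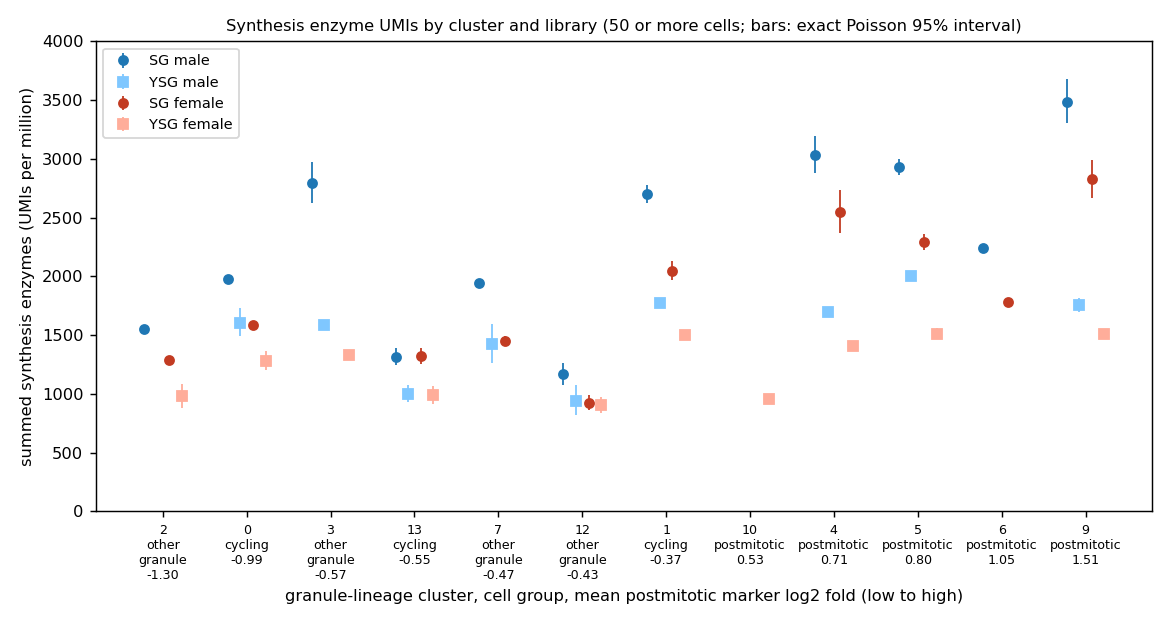
Summed CPM of the 20 enzymes in each granule-lineage cluster and library with 50 or more cells, with exact Poisson 95% intervals; clusters run from low to high mean log2 fold of the postmitotic markers, which is written under each. SG points lie above YSG points of the same sex and cluster, the highest is cluster 9 of SG males at 3488 CPM, and YSG points lie between 907 and 2003 CPM.

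Aqp4-positive cells, 188 and 139 in SG and YSG males and 152 and 45 in SG and YSG females, showed a difference of like size. Their enzymes summed to 1887 and 1198 CPM in males and to 1419 and 963 in females, 1.57-fold (1.47 to 1.69) and 1.47-fold (1.32 to 1.65) lower in YSG. There 7 members were lower in males, beside 16% of all genes, and 12 in females, beside 23.2%. The 12 astroglial markers were lower in the same cells, from 6768 to 4330 CPM in males and from 6587 to 2772 in females, and Aqp4 itself from 682 to 330 and from 599 to 122. The part of these markers in the enzyme result was not tested. With cells picked by 2 or more Aqp4 UMIs the female ratio came to 1.17-fold.

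The third set of comparisons was between cell groups within a library. Cycling and postmitotic cells differed more in single genes than in the sum. In SG the enzymes were lower in cycling cells, 1.22-fold in males and 1.196-fold in females. In YSG they were 1.02-fold lower in males and 1.13-fold higher in females, or 1.02-fold higher without cluster 10. The median over all genes in the same contrast was shifted by -0.08 to -0.10 log2, and the members' medians of -0.01 to -0.22 lie around it.

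Of 27 members, 1 was higher by 0.5 log2 or more in cycling cells in all 4 libraries, beside 8.67% of all genes. This was Lbr, the lamin B receptor of the inner nuclear membrane that is also a sterol C14 reductase. It stood at 175 and 52.3 CPM in cycling and postmitotic cells of SG males, 182 and 69.2 in YSG males, 158 and 50.03 in SG females and 176 and 49.5 in YSG females. The log2 ratios ran from 1.38 to 1.81.

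Mvd, Lss and Pmvk, 3 of 27 members, were lower in cycling cells in all 4, where 11.8% of all genes were. The members' share lower was close to the background, and their share higher was below it. Mvd ran from -1.48 to -1.05 log2, Lss, the lanosterol synthase, from -0.78 to -0.61, and Pmvk, the phosphomevalonate kinase, from -0.79 to -0.52. Mvd stood at 7.59, 9.26, 6.70 and 9.48 CPM in cycling cells of SG and YSG males and SG and YSG females and at 22.4, 27.1, 20.5 and 20.7 in postmitotic cells. Tm7sf2 had the same direction at levels under the minimum, 1.19 to 1.61 CPM in cycling and 3.16 to 4.43 in postmitotic cells. Abca1 was lower in cycling cells in each library, by -1.30 to -0.38 log2, at 3.93 to 8.58 CPM against 5.63 to 22.5. Idi1 and Stard4 were slightly higher in cycling cells in each library, by 0.02 to 0.27 and by 0.11 to 0.45 log2, and Ebp ran from -0.05 to 0.31. Hmgcs1 differed by genotype here: it was -0.88 log2 in SG males and -0.98 in SG females but -0.32 in YSG males and -0.06 in YSG females. Insig1 was -0.03 and -0.21 in SG males and females and 0.35 and 0.83 in YSG males and females. These differences between genotypes were not tested.

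Against granule-lineage cells, Abca1 and Soat1 were the members higher in the Aqp4-positive cells by 0.5 log2 or more in all 4 libraries, 2 of 27, where 5.9% of all genes were higher and 0.51%, none of them members, were lower. The members' share higher was close to the background. Abca1 stood at 79.7, 71.2, 72.7 and 178 CPM in the Aqp4-positive cells of SG and YSG males and SG and YSG females, and at 5.83, 7.37, 5.63 and 15.8 in granule-lineage cells. Soat1 stood at 33.5, 25.9, 40.5 and 39.0 CPM and at 12.2, 7.03, 15.9 and 8.39. The log2 ratios were 3.11 to 3.56 for Abca1 and 1.29 to 2.09 for Soat1. Srebf1 and Scap were also higher in each library, by 0.18 to 0.81 and by 0.25 to 0.62 log2, while Mvk, mevalonate kinase, and Pmvk were higher in 3 of 4 and rest on as few as 4 and 7 UMIs. Of the 27 members measured in all 4 libraries 9 were lower in each, led by Idi1 (-0.78 to -0.21), Cyp51 (-0.82 to -0.34), Fdft1 (-0.54 to -0.10), Srebf2 (-0.44 to -0.25), Lbr (-0.77 to -0.32) and Sqle (-0.89 to -0.05). Idi1 stood at 340, 143, 236 and 128 CPM in the Aqp4-positive cells and at 395, 239, 311 and 220.1 in granule-lineage cells. The enzymes summed to 1.06-fold and 1.11-fold lower than in granule-lineage cells in SG males and females and 1.43-fold and 1.42-fold lower in YSG males and females. With cells picked by 2 or more Aqp4 UMIs the sum was 1.01-fold higher in SG males and 1.01-fold, 1.42-fold and 1.02-fold lower in SG females, YSG males and YSG females, so of these differences the one in YSG males was of like size under both rules.

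The oligodendrocyte-like cells were few, 42 in SG males, 25 in YSG males, 23 in SG females and 21 in YSG females and their enzyme sums lay above those of the cycling, postmitotic and Aqp4-positive cells in each library. They summed to 2604 CPM in SG males, 2429 in YSG males, 2425 in SG females and 1795 in YSG females, on 337 to 1081 UMIs. That was 1.31-fold (1.23 to 1.39), 1.42-fold (1.32 to 1.52), 1.54-fold (1.43 to 1.66) and 1.31-fold (1.17 to 1.46) over granule-lineage cells. The precursor-like cells split from the same cluster, 31, 21, 35 and 23 in number, had sums of 3153, 2556, 2068 and 2912 CPM in the same order, above the oligodendrocyte-like cells in 3 of the 4 libraries. The high sum was thus not particular to the oligodendrocyte-like cells. Hmgcs1, Fdps, the farnesyl diphosphate synthase, Sqle and Msmo1 were higher by 0.5 log2 or more in all 4 libraries. These were 4 of 27 members, beside 8.74% of all genes. No member was lower by that size in all 4, where 3.43% of all genes were. Msmo1 stood at 265, 194, 237 and 192 CPM against 121, 98.0, 83.2 and 67.4, a log2 ratio of 0.98 to 1.499. Hmgcs1 stood at 744, 535, 642 and 527 CPM, with ratios of 0.54 to 1.23. Mvd and Hsd17b7 were higher in each library too, by 0.12 to 2.23 and by 0.28 to 1.85 log2, on as few as 4 and 14 UMIs, and Soat1 and Abca1 in 3 of 4. Lbr (-0.65 to -0.22) and Stard4 (-1.06 to -0.21) were lower in each, while Dhcr7, Srebf1 and Ggps1 went either way and Tm7sf2 had 0 UMIs in 3 of the 4. With cells picked by 10 or more UMIs of the oligodendrocyte markers the sums were 1.13-fold to 1.199-fold over granule-lineage cells. The intervals count UMIs only, and with 21 to 42 cells a few cells can carry a value.

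**Figure D5:**
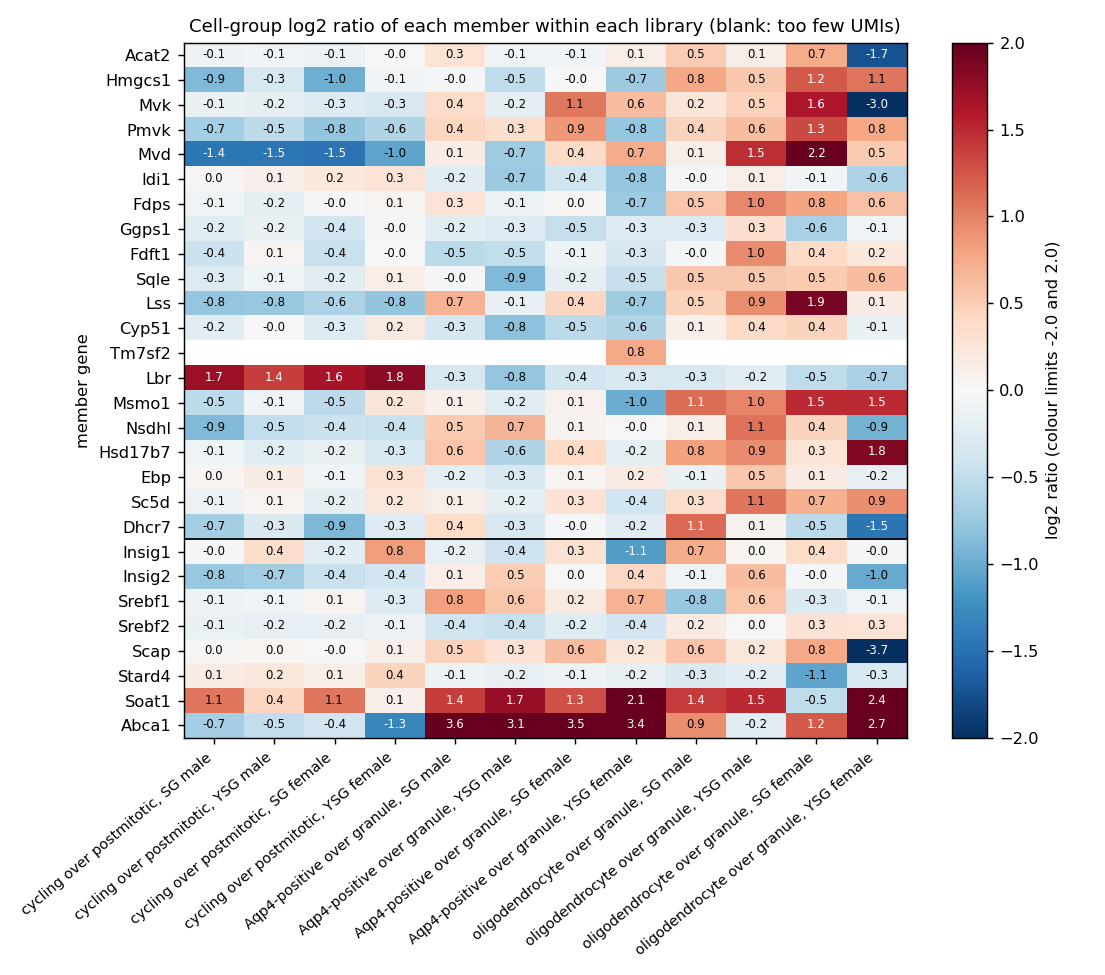
Log2 ratio of each member within each library for cycling over postmitotic cells, Aqp4-positive over granule-lineage cells and oligodendrocyte-like over granule-lineage cells; enzymes lie above the line, blank cells had too few UMIs, and colours stop at 2 either way. Lbr is high in the 4 cycling columns, Abca1 and Soat1 in the 4 Aqp4-positive columns, and Hmgcs1, Fdps, Sqle and Msmo1 in the 4 oligodendrocyte-like columns.

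Genes next to the members in the pathway were read from lists that hold none of them. Of 7 genes that process SREBPs or turn over INSIGs, such as Mbtps2, which cleaves SREBPs (0.19 and 0.26 log2 in males and females), and Erlin1, which helps degrade sterol regulators in the endoplasmic reticulum (-0.30 and -0.36), none differed by 0.5 log2 between YSG and SG in either sex, and their median was -0.20 in males and females. Of 12 fatty acid genes, of which 11 were measured in females, Lpin1 (0.62 and 0.78 log2 in males and females) and Acss2 (0.52 and 0.60), an acetyl-CoA synthetase, were higher in YSG and Me1, malic enzyme, was lower (-0.62 and -0.69), while Elovl6, a fatty acid elongase, stood at 0.44 and 0.38. Gramd1b, which carries sterol from the plasma membrane, stood at 24.3 and 23.5 CPM in SG males and females and 40.04 and 47.03 in YSG males and females. Abcg1, another sterol exporter, stood at 1.15 and 1.49 CPM in SG and 3.24 and 6.65 in YSG, so both male levels were under the minimum of 5 CPM. Within postmitotic cluster 5 it stood at 7.44 CPM in SG and 7.53 in YSG males. In females of that cluster it stood at 7.44 and 14.3, and the intervals overlapped in both sexes. The part of the larger postmitotic share of YSG in the Abcg1 levels was not tested.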

How the data were processed

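Single-cell RNA libraries of 4 tumour groups (SG and YSG males, SG and YSG females, 1 library each) were read as the raw UMI counts per gene and barcode that the authors deposited. Per the file headers the counts came from Cell Ranger 5.0.1, and mm10 is given in the submitters' processing notes. Barcodes were kept from 500 UMIs and 300 genes upward if mitochondrial UMIs were no more than 20% of the total, 31150 in all, from 58478914 to 86906706 deposited UMIs per library. Clusters (scanpy 1.11.5, leidenalg 0.10.2, 2000 variable genes, 30 components, 15 neighbours, resolution 1.0) were made with the 28 genes, other sterol genes, sex-linked genes and Yap1 left out. Scrublet's own threshold marked 0%, 0%, 0% and 12.9% of cells in that order, so doublets were kept and removal of the top 6% was an alternative. Groups were named from fixed markers, but the scoring rule, and the split of cluster 14 into oligodendrocyte-like and precursor-like cells, were set after the clusters were seen. Clusters that met no other rule were named other granule by default, with no granule marker required. They held 19.9% to 35.8% of the cells of a library. Cycling clusters were named from cycling markers, also with no granule marker required, and were counted in the granule lineage. SG cycling cells lay mostly in cluster 0 and YSG ones in cluster 1.

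UMIs were summed per library and group and divided by all UMIs of that sum and scaled to 1000000 (CPM). Ratios are on the log2(CPM + 1) scale, which understates low genes, and 0.5 log2 is a rule of size, not a test. A gene was measured at 5 CPM in either sum and 20 UMIs over both. Folds of UMIs carry exact conditional binomial intervals, levels exact Poisson intervals and shares of cells Clopper-Pearson intervals, all at 95% and for counting error only (scipy 1.17.1, numpy 2.4.6, Python 3.11.15). Figures used matplotlib 3.10.9. Values in every library are given for members past 0.5 log2 the same way in both sexes, the control genes, and the leading members of each contrast between cell groups, some as ranges; other genes were named after their values were seen. The members and lists were chosen with earlier results of these data known.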

Additional observations from a re-analysis of the deposited data

Results flagged for a closer look

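The YSG over SG ratio of Lss, the lanosterol synthase, was on opposite sides in the sexes, at -0.34 log2 in males and 0.19 in females. With equal makeup of the cell groups the female ratio came to 0.01. Insig2 was also on opposite sides, at -0.10 log2 in males and 0.32 in females. With 1 library per group, the difference between the sexes was not tested for either gene.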

How the results depend on the processing

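No paired analysis was possible because each group has 1 library. Of 261 values and counts recomputed under the alternatives, 234 stayed within the main value's spread or within 1.5 times the main count. Some medians near 0 crossed it: that of YSG over SG in male oligodendrocyte-like cells, -0.06, came to 0.15 with no filter on CPM and to 0.01 with the UMI rule per cell, and the Aqp4-positive median of -0.08 came to 0.05 with that rule and to 0.06 without either YSG library. The counts of members over all kept cells are small and were the most sensitive. For members lower in YSG, the main count of 2 came to 0 in each sex with a threshold of 1 log2, to 1 in each sex with a pseudocount of 5 CPM or a minimum of 50 CPM, to 1 in males with the mean of per-cell CPM, and to 1 in females with equal makeup of the cell groups, without cluster 5 or without cluster 10. The 2 members higher in YSG females came to 1 with a threshold of 1 log2, a pseudocount of 5 CPM or equal makeup, and to 0 with a minimum of 50 CPM. The 3 members higher in males came to 0 in both genotypes with a threshold of 1 log2, and in YSG to 5 with median ratio scaling and to 1 without cluster 10. The 2 members lower in YSG males than in YSG females came to 0 with a threshold of 1 log2 or a minimum of 50 CPM, and to 1 without cluster 10. With a minimum of 50 CPM the members' medians came to -0.18 for YSG over SG in males, -0.56 in female postmitotic cells, and 0.23 and 0.32 for males over females in SG and YSG. The cycling over postmitotic median of -0.12 came to -0.021 with median ratio scaling and to -0.21 at resolution 2.0. Leaving out 1 library at a time, it ran from -0.14 to -0.09, the Aqp4-positive median from -0.22 to 0.06 and the oligodendrocyte-like median from 0.34 to 0.44. Leaving out clusters 5 and 10 was chosen after seeing the data. The cause of these changes was not tested.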
